A study of Mus musculus with 31 samples.

Results

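Cxcr3 and Cxcr6 encode chemokine receptors of T cells, and both were followed here in all libraries of T cells isolated from choroid plexus, the epithelial tissue of the brain ventricles. They were chosen by gene symbol with earlier results of these data known, so their unadjusted p-values are not tests of genes set in advance. Both are among the 485 genes of the deposited table. Of a list of 23 mouse chemokine receptor genes they were the only members analysed here, since the table covers part of the genes that a library measures. Female C57BL6/J mice, with no genetic change or drug given in the labels, spent 4 weeks from the age of 4 weeks in an enriched environment (EE, large cages with running wheels, toys and tunnels) or lived in a standard environment (SE, smaller cages without objects), for which the labels give no start or duration. CD4+ T cells (CD45+ CD11b- CD3+ CD4+) and CD8+ T cells (the same gate with CD8+) were sorted in pools of 6 to 20 cells, giving 9 CD4 EE, 8 CD4 SE, 7 CD8 EE and 7 CD8 SE libraries. Within an experiment the animals of an environment shared a cage, and effects of the cage cannot be told apart from those of EE or SE.

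CXCR3 is the receptor of the interferon-induced chemokines CXCL9, CXCL10 and CXCL11. It marks Th1 and effector or memory CD8+ T cells and is a target of the transcription factor T-bet. CXCR6 binds CXCL16, which exists as a membrane-bound and a shed form, and is common on activated T cells and on T cells that stay in tissues. Both are G protein-coupled receptors that act through Gi proteins on adhesion and on the actin cytoskeleton, which moves the cell toward its ligand.

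In the GENCODE annotation of GRCm38, Cxcr3 lies on the minus strand of chromosome X from 101731535 to 101734269 and has 1 transcript of 2 exons. Cxcr6 lies on the plus strand of chromosome 9 from 123806475 to 123811760 and has 2 transcripts of 2 exons each. The whole Cxcr6 locus falls within Fyco1, which is transcribed from the opposite strand (123789500 to 123851899) and was not analysed here. Whether the counting used the strand is not given in the sources used here, so reads of Fyco1 that fall in the Cxcr6 locus were not told apart from reads of Cxcr6 in this work. None of the 1701 words of 31 bases in the Cxcr3 transcript and none of the 1930 words in the Cxcr6 transcripts occurred in a transcript of another gene on either strand.

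Levels are given as normalised UMI counts, in which the number of molecules tagged with a unique molecular identifier (UMI) was divided by one size factor per library. Since the UMI marks the 5′ end of a cDNA, a molecule was counted a single time whatever its length. The counts behind both receptors were low. Over all libraries there were 150 UMIs of Cxcr3 and 196 UMIs of Cxcr6, a library had 0 to 16 of the first and 0 to 26 of the second, and each gene had 3 UMIs or fewer in 13 of the 31 libraries. Sample titles carry a first number, 1 or 2, whose meaning the labels do not give and which was treated as a possible batch. It went with depth. Over the table there were 1910 to 10089 UMIs in the 19 libraries of number 1 and 7657 to 26395 in the 12 of number 2. Per the study's methods, choroid plexus was collected in 2 independent series of experiments. Whether the first number marks these series is not stated. Of 9 listed T cell markers 6 were measured. Cd8a and Cd8b1 were at 0 in all CD4 libraries, from which the authors had removed samples with these transcripts, and Cd4 was at 0 in all CD8 libraries. RNA per cell and the share of cells that express a receptor cannot be told apart in pools of this kind.

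Cxcr3 was detected in 25 of 31 libraries, and its group means lay between 2.19 and 4.51. In CD4 SE, the group with the highest mean (4.51 ± 2.50, SD, n = 8), it was found in every library, at a lowest value of 1.18, a median of 4.51 and a highest of 7.62. CD8 EE was next and varied least, with 4.12 ± 1.31 (n = 7) and values from 1.96 to 6.15 around a median of 4.11. CD4 EE had 2.61 ± 2.39 (n = 9), with 3 libraries at 0, a median of 2.47 and a highest value of 6.10. CD8 SE had 2.19 ± 2.58 (n = 7), with 3 libraries at 0, a median of 2.06 and a highest value of 7.04. Each step in this order was smaller than the larger SD beside it, and the ranges of all groups overlapped.

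The 6 libraries without a Cxcr3 UMI were CD4 EE replicates 3, 5 and 8 and CD8 SE replicates 1, 4 and 7. All had first number 1 and were shallow, with 1910 to 4192 UMIs over the table, so that 3 UMIs, the number a count of 0 allows, corresponded to normalised values of 4.35 to 8.81. The mean of Cxcr3 over all libraries, 3.35, lies below each of these limits, which cover counting error only. Other libraries with totals between 1910 and 4192 UMIs had Cxcr3. They were CD4 SE replicates 2 and 5 (3 and 4 UMIs), CD8 EE replicates 4 and 7 (2 and 1) and CD8 SE replicate 3 (4). The part of depth in the libraries at 0 was not tested. All 12 libraries of number 2 had Cxcr3, with 2 to 16 UMIs each. Cxcr3 was detected in 6 of 9 CD4 EE and 8 of 8 CD4 SE libraries (two-sided Fisher's exact p 0.206) and in 7 of 7 CD8 EE and 4 of 7 CD8 SE libraries (Fisher's exact p 0.192). Across all libraries the squared deviations of the Cxcr3 counts from one shared rate were 1.34 times those of counting error alone, against 2.17 times for Cxcr6.

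**Figure D1:**
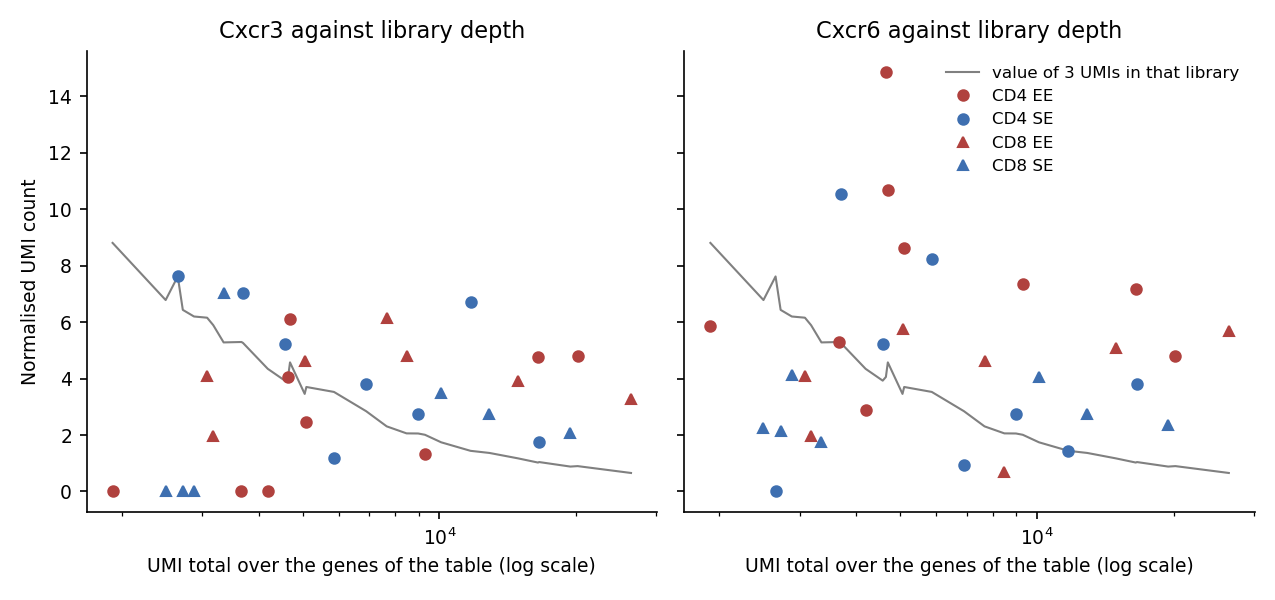
Normalised UMI count of Cxcr3 (left) and Cxcr6 (right) on the vertical axis against the UMI total of the library over the 485 genes (log scale), with circles for CD4, triangles for CD8, red for EE and blue for SE; the grey line gives the value of 3 UMIs in each library. The 6 libraries at 0 for Cxcr3 have totals of 1910 to 4192 UMIs and lie under a line at 4.35 to 8.81.

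Cxcr6 was detected in 30 of 31 libraries and was highest in CD4 EE. There it ran from 2.90 to 14.9 with a median of 7.17 (7.51 ± 3.57, n = 9), and the highest library, CD4 EE replicate 2, rested on 11 UMIs. CD4 SE had 4.12 ± 3.69 (n = 8), from 0 in replicate 2, where 3 UMIs would be worth 7.62, to 10.5 in replicate 5, with a median of 3.28. CD8 EE had 3.98 ± 1.94 (n = 7), from 0.686 to 5.76 with a median of 4.61. CD8 SE was lowest and the most even, with 2.78 ± 0.947 (n = 7) and values from 1.76 to 4.13 around a median of 2.35. As for Cxcr3, each step in the order was smaller than the larger SD beside it, and the ranges overlapped. When the UMIs of a group were summed over its summed size factors, which gives deep libraries more weight, the Cxcr6 level of CD4+ T cells was 6.92 for EE (exact Poisson 95% interval 5.48 to 8.61) and 3.58 for SE (2.51 to 4.96). That of CD8+ T cells was 4.59 for EE (3.45 to 5.99) and 2.80 for SE (1.83 to 4.10). For Cxcr3 the same sums gave 3.55 (2.54 to 4.81) and 3.88 (2.76 to 5.30) in CD4, and 4.00 (2.94 to 5.31) and 2.48 (1.57 to 3.72) in CD8. These intervals cover counting error only and not the spread between mice.

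**Figure D2:**
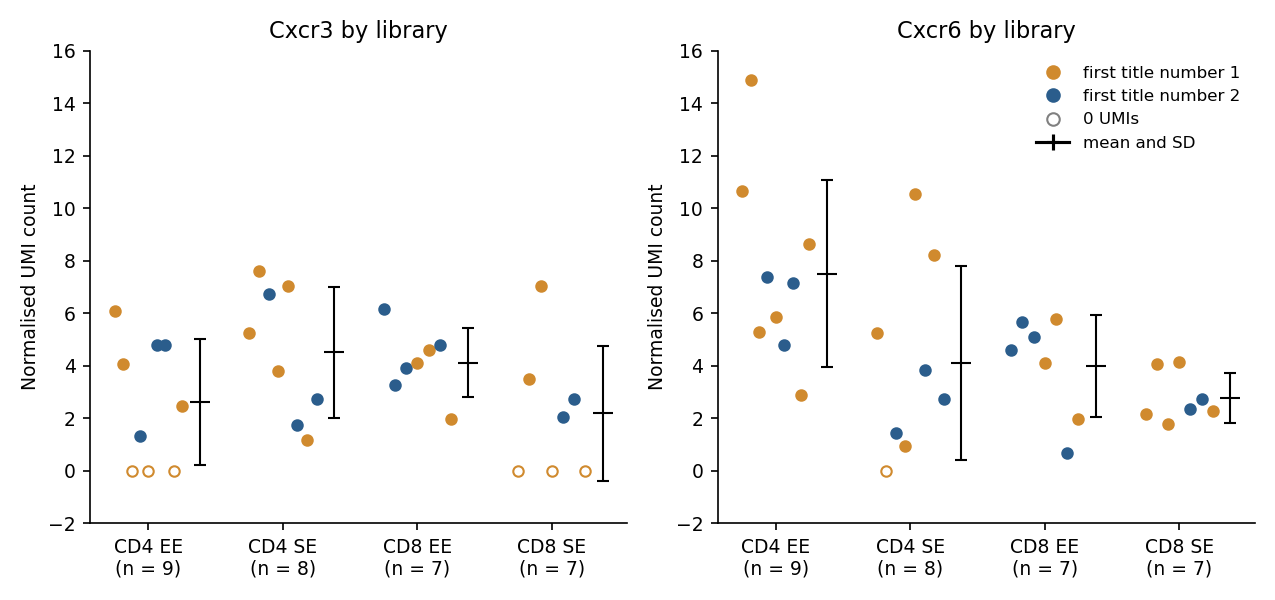
Normalised UMI counts of Cxcr3 (left) and Cxcr6 (right) in every library by group, with first title number 1 in orange, number 2 in blue and open circles for 0 UMIs; the black mark and bar at the right of each group are the mean and SD. The mean of Cxcr6 is highest in CD4 EE, where libraries lie at 2.90 to 14.9. The groups overlap for both genes, and Cxcr3 has 3 libraries at 0 in CD4 EE and 3 in CD8 SE.

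The first question is whether housing went with a different level of the receptors in CD4+ T cells. The mean of Cxcr6 was higher in EE: 8 of 9 EE libraries lay above the mean of the SE libraries on the log2 scale and 4 of 8 SE libraries lay below the lowest EE library, while 2 EE libraries lay above every SE library. On the scale log2(normalised value + 1) the difference was 1.01 (SE 0.424, 95% interval 0.14 to 1.87), with an unadjusted limma p of 0.0241 and a two-sided exact permutation p of 0.0399. It did not pass the adjustment over all 483 genes tested (adjusted limma p 0.992), as no gene did: 0% were called at an adjusted p under 0.05, and 18 genes or 3.73% had an unadjusted p under 0.05. edgeR and DESeq2 on the recovered UMI counts called 1 gene each at an adjusted p under 0.05, and neither gene was Cxcr6. Their estimates for Cxcr6 were 0.94 and 0.96. The difference was 0.97 among libraries of first number 1 (unadjusted limma p 0.119) and 1.06 among those of number 2 (unadjusted limma p 0.0274). Leaving out single libraries gave 0.72 to 1.23, with an unadjusted p of 0.0722 without CD4 SE replicate 2, the library at 0, and of 0.0529 and 0.0562 without CD4 EE replicate 2 or CD4 SE replicate 4.

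Cxcr3 in CD4+ T cells had the opposite sign and did not pass the test. Only 4 of 9 EE libraries lay above the SE mean, 3 EE libraries, those at 0, lay below every SE library, and 3 SE libraries lay above every EE library. The difference was -0.83 (SE 0.474, 95% interval -1.80 to 0.135, unadjusted limma p 0.0890, adjusted 0.992, exact permutation p 0.111). It was -1.27 within first number 1, which holds the libraries at 0, and -0.0045 within number 2. The count models, in which a library weighs by its depth, gave -0.37 (edgeR) and -0.45 (DESeq2), and the sums above differed little (3.55 in EE, 3.88 in SE). The limma value was over 1.5 times that of either count model.

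In CD8+ T cells the larger difference by limma was that of Cxcr3. All 7 EE libraries lay above the SE mean on the log2 scale, although 1 SE library, replicate 3 at 7.04 from 4 UMIs, lay above every EE library. The difference was 1.07 (SE 0.492, 95% interval 0.058 to 2.08), with an unadjusted limma p of 0.0390, an adjusted p of 0.950 and an exact permutation p of 0.0629. Of 484 genes tested, 0% were called at an adjusted p under 0.05 by limma, edgeR and DESeq2 called 0 as well, and 12 genes or 2.48% had an unadjusted limma p under 0.05. The estimate was 1.10 within first number 1 and 0.69 within number 2. The deeper number 2 held 4 of the 7 CD8 EE but 2 of the 7 CD8 SE libraries. With the first number as a covariate the estimate was 0.93 (unadjusted limma p 0.0810). The count models gave 0.73 (edgeR) and 0.77 (DESeq2), with unadjusted p of 0.119 and 0.128. Leaving out any 1 of CD8 SE replicates 1, 4 and 7, the libraries at 0, lowered the difference to 0.86. CD8 SE replicates 5 and 6 share a title animal number, so the 7 CD8 SE libraries stand for 6 identities. With these replicates averaged the Cxcr3 difference was 1.15 (unadjusted limma p 0.0373) and that of Cxcr6 was 0.29. Cst3, the only 1 of 5 listed myeloid genes in the table, was also higher in CD8 EE than in CD8 SE. It had 10.7 ± 7.28 (range 4.37 to 24.6) in EE and 4.41 ± 3.99 (range 0 to 12.4) in SE. On the log2 scale it was higher by 1.25 (exact permutation p 0.0408). Neither the cells that its transcripts came from nor its part in the Cxcr3 result was tested. The choroid plexus epithelium genes Ttr and Enpp2, 2 of 6 listed, summed to 74.9 to 312.1 in CD8 EE and 85.9 to 227.4 in CD8 SE (exact permutation p 0.277).

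Cxcr6 in CD8+ T cells differed between environments by less than the spread between libraries. EE exceeded SE by 0.30 (SE 0.397, 95% interval -0.52 to 1.12, unadjusted limma p 0.458, adjusted 0.991, exact permutation p 0.351). It was 0.32 within each first number, 0.60 with edgeR, 0.59 with DESeq2 and 0.54 without CD8 EE replicate 6. The 4 highest EE libraries lay above every SE library and 1 EE library, replicate 6 with 1 UMI at 0.686, lay below every SE library. The interval includes the difference measured in CD4+ T cells.

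The second question is whether CD4+ and CD8+ T cells carried different levels of the receptors. Over both environments neither passed the test. The CD4 minus CD8 difference was 0.088 for Cxcr3 (SE 0.363, 95% interval -0.64 to 0.82, adjusted limma p 0.924) and 0.46 for Cxcr6 (SE 0.293, -0.13 to 1.05, adjusted p 0.373). In the same comparison 36 of 485 genes (7.42%) were called at an adjusted p under 0.05 and 108 (22.3%) had an unadjusted p under 0.05. The Cxcr3 value was 0.34 within first number 1 and -0.061 within number 2, and the Cxcr6 values were 0.45 and 0.42.

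Within environments no difference between the cell types passed the adjusted test for either receptor, and in EE the signs were opposite. In EE the mean of Cxcr6 was higher in CD4+ T cells by 0.80 (SE 0.359, 95% interval 0.062 to 1.54, unadjusted limma p 0.0348, adjusted 0.291, exact permutation p 0.0311), and 6 of 9 CD4 libraries lay above every CD8 library. It was 0.81 within first number 1 and 0.73 within number 2. These tests over libraries take no account of the mice that gave both cell types. With the mouse as a replicate block the Cxcr6 difference was 0.77 (unadjusted limma p 0.0377). In the 5 EE mice with both cell types its mean was 0.32 ± 0.911, higher in CD4 in 3 mice and lower in 2. The mean of Cxcr3 in EE was lower in CD4+ than in CD8+ T cells, by -0.84 (SE 0.453, -1.77 to 0.094, unadjusted limma p 0.0760, adjusted 0.418, exact permutation p 0.107), with -0.98 and -0.34 within numbers 1 and 2, and with -0.40 (edgeR) and -0.43 (DESeq2) in the count models. Among all genes in EE, 1.44% were called at an adjusted p under 0.05 and 14.6% had an unadjusted p under 0.05.

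In SE the receptor with the larger difference was Cxcr3, with a higher mean in CD4+ T cells by 1.06 (SE 0.499, 95% interval 0.041 to 2.09, unadjusted limma p 0.0421, adjusted 0.314, exact permutation p 0.0662). It was 1.39 within first number 1 and 0.35 within number 2, and 0.68 with edgeR. The 3 CD8 libraries below every CD4 library were those at 0. Cxcr6 in SE differed by 0.093 (SE 0.469, -0.87 to 1.05, adjusted limma p 0.952), by 0.37 with edgeR and by 0.38 with DESeq2. Of all genes in SE, 2.89% were called at an adjusted p under 0.05 and 13.8% had an unadjusted p under 0.05.

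**Figure D3:**
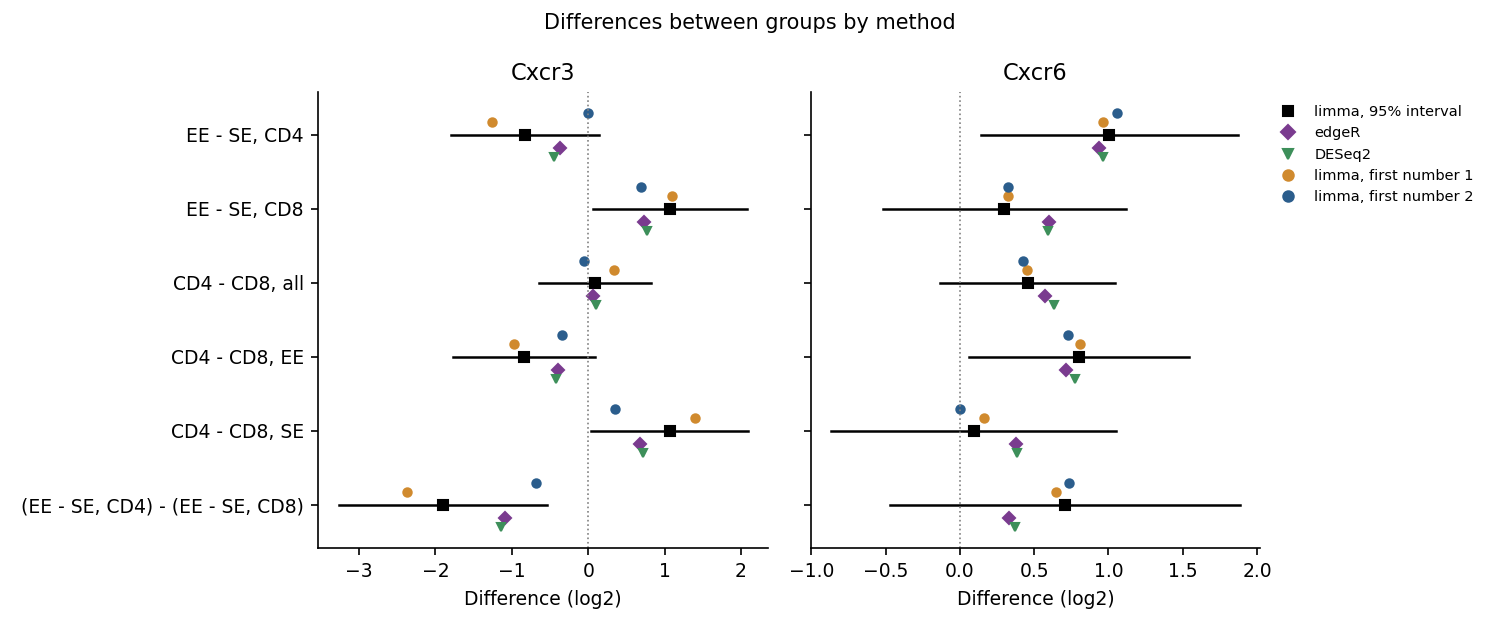
Differences on a log2 scale (horizontal axis) for Cxcr3 (left) and Cxcr6 (right) in 6 comparisons, with black squares and lines for limma on log2(normalised value + 1) and its 95% interval, diamonds for edgeR, triangles for DESeq2, and circles for limma within first title number 1 (orange) or 2 (blue). For Cxcr6 in CD4, EE exceeds SE by 0.94 to 1.06 under all of these, while for Cxcr3 the count models and number 2 lie nearer to 0 than the pooled limma value of -0.83.

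The third question is whether the effect of housing differed between the cell types. Neither receptor passed the adjusted test. For Cxcr3 the difference of the effects was -1.90 (the EE minus SE difference in CD4 less that in CD8, SE 0.677, 95% interval -3.27 to -0.54), with an unadjusted limma p of 0.00731 and a permutation p of 0.0104 (100000 permutations of the environment within cell types, which take no account of the mice that gave both cell types). By unadjusted p it ranked second of the 485 genes, and its adjusted limma p was 0.976. No gene (0%) was called at an adjusted p under 0.05 by limma, edgeR or DESeq2, and 12 genes (2.47%) had an unadjusted limma p under 0.05. The value was -2.37 within first number 1 and -0.69 within number 2, and the count models gave -1.09 (edgeR, unadjusted p 0.111) and -1.15 (DESeq2, unadjusted p 0.0998). Leaving out single libraries gave -2.20 to -1.70. For Cxcr6 the difference of the effects was 0.71 (SE 0.584, -0.47 to 1.88, unadjusted limma p 0.232, adjusted 0.976, permutation p 0.241), with 0.65 and 0.73 within the first numbers. The count models gave 0.33 (edgeR) and 0.37 (DESeq2) for Cxcr6, and limma gave 0.43 without CD4 SE replicate 2 and 0.47 without CD8 EE replicate 6. For neither receptor was the effect of housing shown to differ between the cell types.

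By the animal numbers in the titles, CD4+ and CD8+ T cells were paired in 10 mice, 5 of each environment. In 1 SE pair the CD8 level is the mean of CD8 SE replicates 5 and 6, whose column names carry the animal numbers 5 and 6 together, so whether its libraries come from a single animal is not certain. Cxcr3 was higher in the CD4 library of 5 mice and in the CD8 library of the other 5, with a mean difference of -0.16 ± 1.57 on the log2 scale (n = 10, exact sign-flip permutation p 0.770). Among EE mice the mean was -1.05 ± 1.33 (n = 5) and among SE mice 0.73 ± 1.33 (n = 5), a difference between environments of -1.78 with an exact permutation p of 0.0794. Mouse by mouse, the CD4 minus CD8 values in EE were -2.49, -2.35, -0.87, 0.23 and 0.24, and those in SE were -0.75, -0.30, 0.94, 1.12 and 2.64. In both EE mice with values below -2 the CD4 library was at 0, and in both SE mice with values above 1 the CD8 library was at 0. Cxcr6 was higher in the CD4 library of 6 mice and in the CD8 library of 4, with a mean of 0.17 ± 1.19 (exact sign-flip permutation p 0.670), 0.32 ± 0.911 in EE and 0.018 ± 1.51 in SE.

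**Figure D4:**
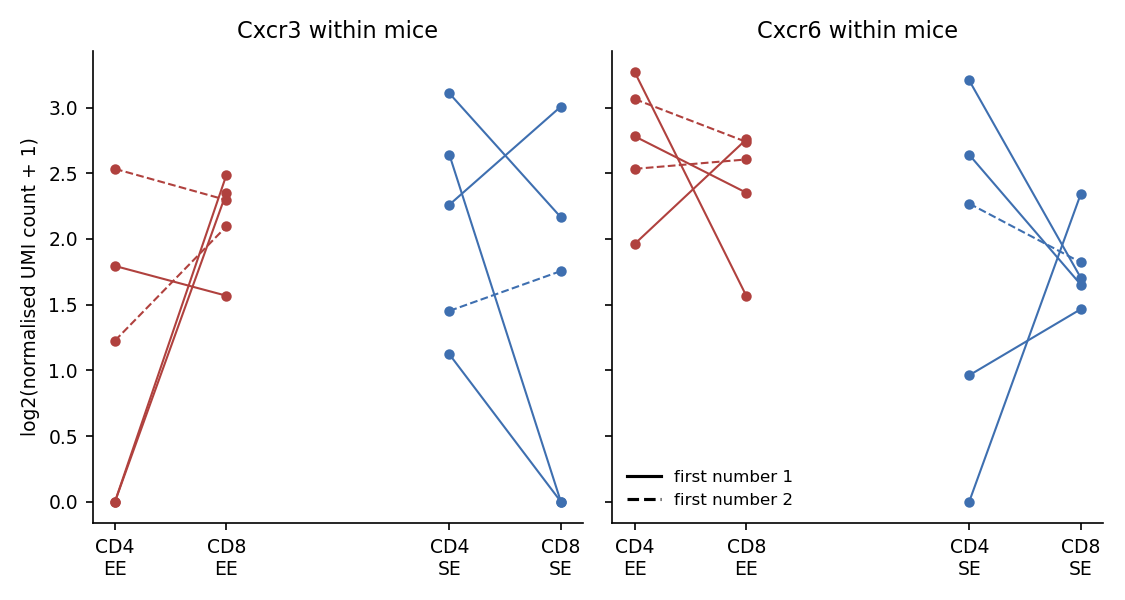
Level of Cxcr3 (left) and Cxcr6 (right) as log2(normalised UMI count + 1) in CD4+ and CD8+ T cells of the same mouse, with a line per mouse, EE in red, SE in blue, first title number 1 solid and number 2 dashed. Cxcr3 is higher in the CD8 library of 3 of 5 EE mice and in the CD4 library of 3 of 5 SE mice, and lines in both environments start or end at 0.

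Since both genes were counted in the same libraries, the share of Cxcr3 in their joint UMIs does not depend on the size factors. In CD4+ T cells it was 33.9% for EE (41 of 121 UMIs, exact Clopper-Pearson 95% interval 25.5% to 43.0%) and 52% for SE (39 of 75, 40.2% to 63.7%). In CD8+ T cells it was 46.5% for EE (47 of 101, 36.5% to 56.7%) and 46.9% for SE (23 of 49, 32.5% to 61.7%). By pooled UMIs CD4 EE was lowest within each first number. It had 22.0% among libraries of number 1, where the other groups had 45.5% to 47.1%. Among those of number 2 it had 40%, where they had 46.5% to 56.1%. By the median of single libraries in number 1, CD8 SE was lower, at 0% against 10.7% in CD4 EE. No difference in share was tested, and the intervals of the pooled shares cover counting error only and not the spread between mice. Single libraries ran from 0% to 50% in CD4 EE and from 12.5% to 100% in CD4 SE. In 8 of 9 CD4 EE libraries Cxcr6 had more UMIs than Cxcr3 and in the other, replicate 6, both had 16. In CD4 SE, Cxcr3 had more UMIs in 3 libraries, fewer in 3 and as many in 2. Cxcr3 had more in 2 CD8 EE libraries, fewer in 3 and as many in 2. For CD8 SE these counts were 1, 5 and 1.

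**Figure D5:**
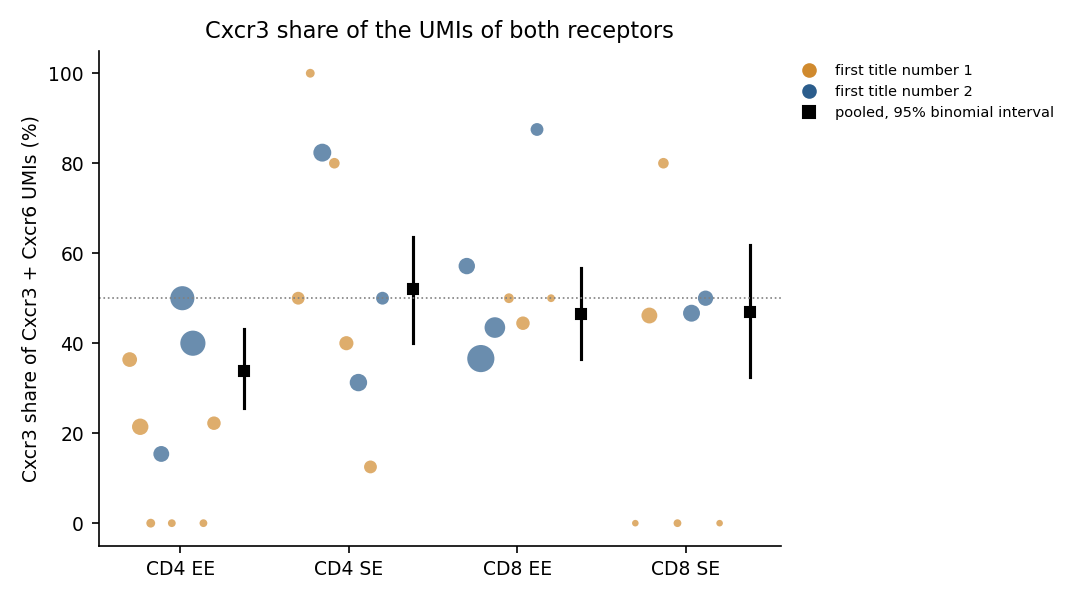
Share of Cxcr3 in the UMIs of Cxcr3 and Cxcr6 together (%, vertical axis) for each library, with the point area growing with the number of UMIs, first title number 1 in orange and number 2 in blue; black squares and lines give the pooled share of the group with its exact 95% binomial interval. CD4 EE has the lowest pooled share, 33.9%, and no library above 50%. The intervals leave out the spread between mice.

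No relation between the levels of the receptors was detected across libraries. Pearson's r of log2(value + 1) was -0.039 over 31 libraries (permutation p 0.834) and Spearman's rank correlation was -0.053 (permutation p 0.775). It was 0.030 within first number 1 (n = 19), -0.25 within number 2 (n = 12), 0.050 for deviations from the group means, and 0.025 over all libraries without the 2 farthest from the median of Cxcr3. At 3 UMIs or fewer in so many libraries a relation between the genes may not be detectable at this depth.

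The genes whose pattern over the 31 libraries was most like that of Cxcr3 were Pik3cd, which encodes a catalytic subunit of leukocyte PI3-kinase (r = 0.69, 0.72 for deviations from the group means), Arhgdib, a gene of the cell motility list (0.66 and 0.57), and Ube2b, which encodes a ubiquitin-conjugating enzyme (0.56 and 0.51). The median over the other 484 genes was 0.072. For Cxcr6 they were Ifi27l2a, an interferon-induced gene (0.52 and 0.48), Myl12b, which encodes a myosin regulatory light chain (0.48 and 0.45), and Hnrnpa2b1, which encodes an RNA-binding protein (0.48 and 0.35), beside a median of 0.021. These libraries share depth and group, and the values are descriptions. Arhgdib followed the group order of Cxcr3, with 30.2 in CD4 SE, 24.6 in CD8 EE, 22.0 in CD4 EE and 18.4 in CD8 SE, and Ifi27l2a had its highest mean in CD4 EE as Cxcr6 did (18.5, against 15.3, 6.55 and 4.31 in CD4 SE, CD8 EE and CD8 SE). Pik3cd did not follow the group order of Cxcr3, with its lowest mean in CD4 SE (2.80).

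Of 26 listed chemokine ligand genes, Ccl5 and Xcl1 were in the table, and the ligands of CXCR3 and CXCR6 were not analysed here. Ccl5, a chemokine made by effector and memory CD8+ T cells, was lower in CD4+ than in CD8+ T cells by -2.85 (SE 0.251, adjusted limma p 1.83e-12), with 7.03 ± 5.32 in 17 CD4 libraries and 48.4 ± 19.1 in 14 CD8 libraries. Xcl1, the ligand of XCR1 on cross-presenting dendritic cells, was lower by -1.51 (SE 0.389, adjusted limma p 0.00976), at 2.55 ± 3.57 and 7.08 ± 4.98. In CD4+ T cells Ccl5 had an EE minus SE difference close to that of Cxcr6, 1.00 (SE 0.407, 8.82 ± 4.26 in 9 EE and 5.01 ± 5.93 in 8 SE libraries), and its adjusted limma p was likewise 0.992. Xcl1 had -0.051 there.

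The T-bet programme, a list of 28 genes that includes Cxcr3, had 10 measured members. In EE against SE none of them passed the adjusted test in CD4 or in CD8, and the medians were 0.15 in CD4 (-0.036 over all genes) and 0.015 in CD8 (0.042 over all genes). Il2rb, the shared receptor chain for IL-2 and IL-15, had 0.38 in CD4 and -0.51 in CD8, opposite in sign to Cxcr3 in both. Between cell types 4 of the 10 were lower in CD4+ T cells at an adjusted p under 0.05 (Ccl5, Xcl1, Nkg7, Ctsw), and Cxcr3 did not pass, beside 7.42% called over all genes.

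The tissue residency list, 22 genes with Cxcr6 among them, had 11 measured members, none of which passed the adjusted test for EE against SE. Its medians were -0.047 in CD4 (-0.036 over all genes) and -0.19 in CD8 (0.042 over all genes), and Cxcr6 was the only member with an unadjusted limma p under 0.05. Itgb7, an integrin chain of gut-homing and intraepithelial T cells, had -0.62 in CD4 (9.48 ± 5.70 in EE, n = 9, and 14.5 ± 6.94 in SE, n = 8) and -0.36 in CD8. Rgs1, which dampens chemokine receptor signalling, had -0.48 and -0.55. Between cell types 3 members were higher in CD4+ T cells at an adjusted p under 0.05 and 2 were lower (the 5 are Cd44, Xcl1, Nr4a1, Nr4a2 and Junb), and Cxcr6 was among the 6 that did not pass. Over all genes 7.42% were called in this comparison.

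Of 17 genes of egress and the naive state 5 were measured, with none called between environments and medians of -0.099 in CD4 (-0.036 over all genes) and 0.46 in CD8 (0.042 over all genes). S1pr1, the receptor that guides T cells out of tissues into blood and lymph, was higher in CD4+ than in CD8+ T cells by 1.30 (SE 0.304, adjusted limma p 0.0041), with 4.71 and 1.51 on average. Ly6c2, which encodes an Ly6C antigen of memory T cells, was lower by -1.50 (SE 0.336, adjusted limma p 0.0024), and in CD4 its EE minus SE difference of 1.17 (SE 0.486) did not pass (adjusted limma p 0.992). Selplg, the P-selectin ligand, was the gene that preceded Cxcr3 by unadjusted p in the difference of the EE effects, at -1.31 (SE 0.462, unadjusted limma p 0.00669, adjusted 0.976), with 5.72 ± 2.65 and 9.71 ± 4.28 in CD4 EE and SE (n = 9 and 8) and 10.2 ± 2.18 and 6.90 ± 3.32 in CD8 EE and SE (n = 7 each).

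Of 58 genes of chemokine receptor signalling and cell motility 27 were measured, among them the Gi protein gene Gnai2 and many of actin and its regulators. None was called between environments, with medians of -0.054 in CD4 (-0.036 over all genes) and 0.032 in CD8 (0.042 over all genes). Between cell types 23 of 27 were higher in CD4+ T cells by sign, beside 56.7% of all genes, and 1, Tmsb4x (thymosin beta 4, which binds actin monomers), passed the adjusted test, which 7.42% of all genes passed. Arhgdib had -0.62 in CD4 and 0.40 in CD8, and Capzb, a subunit of the protein that caps actin filaments, -0.70 and 0.74, the signs of Cxcr3 in each cell type, with differences of the effects of -1.03 (SE 0.379) and -1.45 (SE 0.593) and adjusted limma p of 0.976 for both. Tmsb10 had -0.054 and 0.27.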

How the data were processed

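RNA of sorted T cell pools was tagged with UMIs in the template switch oligo and sequenced on an Ion Proton. Per the study's methods, the authors trimmed reads with cutadapt, required the UMI pattern, discarded templates under 50 bases, mapped with STAR 2.4.0a to mm10, used Drop-seq tools and Ensembl gene models (GRCm38) to count UMIs for each gene, left out CD4 samples with Cd8a or Cd8b transcripts, removed genes of low abundance and normalised depth with DESeq2. The deposited values are a signal, UMI counts divided by one size factor per library. All were whole multiples of one step (100% within 0.001), so UMI counts were recovered. Totals were 1910 to 26395 UMIs per library over the 485 genes.

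limma 3.58.1 (R 4.3.3) was fitted across all genes to log2(value + 1) with a variance trend, two-sided, with Benjamini-Hochberg adjustment and a threshold of 0.05. This test was chosen for the deposited unit, and edgeR 4.0.16 and DESeq2 1.42.0 on the recovered counts were alternatives, as were other pseudocounts (0.5 and 4), scalings, a filter at a mean of 5, the first title number, replicate blocks and leaving out each library. The limma step was tested on simulated data with planted changes larger than the EE minus SE differences of the receptors. Its power at differences of that size was not tested. The added 1 lowers log2 changes of low values, yet between environments Cxcr3 differed more by limma than by the count models. Exact permutation tests compared groups of libraries for the receptors. Cxcr3 and Cxcr6 and all gene lists were chosen with earlier results of these data known. Genes named are both receptors, the 3 genes most correlated with each, the measured chemokine receptors and ligands, and up to 3 genes of each other list with the smallest unadjusted p for EE against SE; others are named only as members of a count.

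Replicates are numbered in accession order, and a mouse is an environment, first number and animal number. The 31 libraries come from 20 such identities, CD8 SE replicates 5 and 6 sharing one. By their titles, CD4 and CD8 libraries of 1 mouse share the animal, and the correlations of their deviations from the group means over the genes were -0.11 to 0.21 in 10 pairs (median 0.066). No 2 libraries of a group agreed within sampling noise (chi-square per degree of freedom 1.24 to 4.49 in 106 pairs). The only marker genes measured outside T cells were Ttr and Enpp2, listed for the choroid plexus epithelium, and Cst3, listed for myeloid cells. Which cells the Cst3 transcripts came from was not tested. Lists for NK cells, invariant and gamma delta T cells, B cells and erythrocytes had 0 measured genes. Coordinates are from GENCODE on GRCm38.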

Additional observations from a re-analysis of the deposited data

Results flagged for a closer look

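The EE minus SE difference of Cxcr3 was negative in CD4 and positive in CD8, and the difference between them was below an unadjusted threshold but did not pass the adjustment over all genes: it was -1.90 on the log2 scale (permutation p 0.0104, unadjusted limma p 0.00731, adjusted limma p 0.976). The count models gave -1.09 (edgeR, unadjusted p 0.111) and -1.15 (DESeq2, unadjusted p 0.0998), the comparison within mice -1.78 (exact permutation p 0.0794), and the fit with CD8 SE replicates 5 and 6 averaged -1.99. In CD4 4 of 9 EE libraries, and in CD8 7 of 7, lay above the SE mean. The sign was negative under every alternative run, from -2.55 to -0.69. All 6 libraries at 0 lie in the groups with the lower means and in the shallow first number 1. Leaving out any 1 of CD4 EE replicates 3, 5 and 8 gave -1.72, and leaving out CD8 SE replicate 1 or 4 gave -1.70. The joint part of the 6 libraries was not tested beyond the value in libraries of number 2, which have no 0 (-0.69).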

How the results depend on the processing

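No result on Cxcr3 or Cxcr6 passed an adjusted p of 0.05 under any alternative run. Of 580 recomputed values, which include counts of called genes, 558 were labelled as kept. For an estimate this meant the same direction and the same side of the threshold. For a count it allowed a limited change, such as 24 or 53 called genes against 36 for CD4 against CD8. For Cxcr3, CD4 minus CD8 was -0.061 within first number 2, and leaving out single libraries gave -0.049 to 0.20, with the sign turned without CD8 SE replicate 1, 4 or 7. For Cxcr6, CD4 minus CD8 in SE was -0.0022 within number 2 and -0.13 to 0.38 without single libraries, turning without CD4 SE replicate 1, 5 or 7. Cxcr6 EE minus SE in CD8 was -0.073 with a replicate block of first and animal number. The causes were not tested. With that block Cxcr3 gave -0.68 in CD4 and 1.96 in CD8 and Cxcr6 0.97 in CD4 (unadjusted limma p 0.0942 for Cxcr6). Nothing in the labels ties these numbers across environments, and libraries with the same number correlated by -0.012 to 0.27 in 6 CD4 pairs and 0.013 to 0.070 in 2 CD8 pairs. With the mouse as a replicate block, CD4 minus CD8 was 0.067 for Cxcr3 and 0.44 for Cxcr6, and the pairing changed no call on either. A filter at a mean of 5 removed Cxcr3 from all comparisons and Cxcr6 from all but EE against SE in CD4 and CD4 against CD8 in EE.

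Genes called for EE against SE in CD4 were 0, or 1 with a pseudocount of 4, edgeR or DESeq2, and in CD8 0, or 1 within number 1. For CD4 against CD8 they were 36, with 14 after the filter, 55 with DESeq2, 20 within number 1 and 20 within number 2. In EE they were 7, with 3 after the filter, 11 with DESeq2 and 4 within number 1. In SE they were 14, with 8 after the filter and 5 within number 2. At 3 UMIs or fewer of each receptor in 13 of 31 libraries, depth limits all values of single libraries.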
